A study of Mus musculus with 6 samples.

Results

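A set of 9 genes of necroptosis, pyroptosis and plasma membrane rupture were examined in B16F10 cells, an established mouse melanoma line. They were picked by name from the 27179 genes of the deposited table, and all 9 were found: Ripk1, Ripk3, Mlkl, Zbp1, Gsdmd, Gsdme, Casp1, Casp4 and Ninj1. Wild-type B16F10 cells received 0.01% olive oil (OLO, 3 libraries) or 0.01% ozonated olive oil (OZO, 3 libraries) for 6 h, and their RNA was sequenced. The libraries of a group come from independent experiments according to the study's text. The cells are of 1 line grown alone in culture. The study examined the activity of OZO against melanoma cells, including which kind of cell death it causes. The values used here are averages over all 6 libraries, so they show which of these genes the cells transcribed, and not how OZO-treated and OLO-treated cells differed.

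Necroptosis is a lytic cell death in which the kinase RIPK1, or the nucleic acid sensor ZBP1, engages the kinase RIPK3, which phosphorylates MLKL so that it permeabilizes the plasma membrane. Pyroptosis uses gasdermins, proteins that form pores once a protease has cut them: GSDMD is cut by the inflammatory caspases 1 and 4 (the mouse caspase 4 is also known as caspase 11). NINJ1 acts late in pyroptosis and other lytic deaths, when it ruptures the plasma membrane of the dying cell.

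Of the 9 genes, 4 were expressed, that is, had an average log2 CPM (CPM, read counts scaled to a common library size) of 0 or more, which is 1 CPM: Mlkl, Ninj1, Ripk1 and Gsdme. The other 5, Gsdmd, Casp4, Casp1, Zbp1 and Ripk3, had reads but stayed under this limit, and none of the 9 was without reads. The share expressed, 44.4%, lay next to the 43.7% of all 27179 genes that reached the limit (11878 genes). On the 2 sides of the limit stood Gsdme, with an average log2 CPM of 3.26, and Gsdmd, with -0.96, and no member lay between them. A level of 1 CPM stood for 19.6 reads per library, since the libraries held 19641946 reads on a geometric average, after scaling. The depth of each library is unknown. In bulk RNA, few cells with a transcript and little of it in every cell cannot be told apart.

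**Figure D1:**
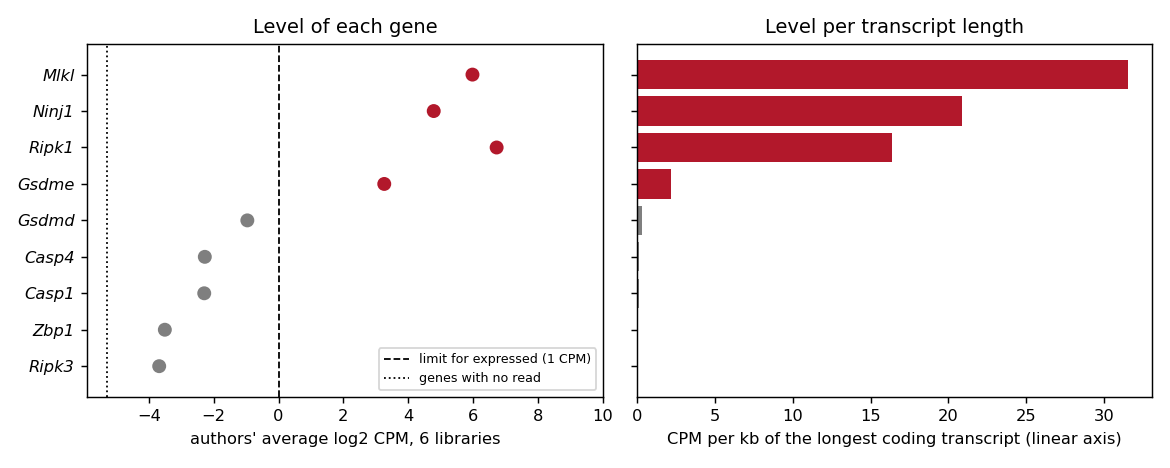
Left, the authors' average log2 CPM over the 6 libraries for each gene, with the limit of 1 CPM (dashed) and the value of genes with no read (dotted, -5.30). Right, the same averages as CPM per kb of the longest coding transcript on a linear axis. Points and bars are red for the 4 expressed genes and grey for the other 5, and each is 1 average without an error. Mlkl had the longest bar, 31.5 CPM per kb, and the bars of the 5 grey genes were all under 0.29.

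Among the necroptosis genes, the kinase at the start of the route and the effector at its end were expressed, and the kinase that links them had few reads on average. The average of Ripk1 was 6.73 on the log2 CPM scale, or 106 CPM. That of Mlkl was 5.98, or 63.2 CPM. Behind these averages stood a geometric mean of 2080 reads per library for Ripk1 and of 1241 for Mlkl, counted with the 0.5 reads that voom adds to each count. Ripk3 had an average log2 CPM of -3.68 and a geometric mean of 1.53 for reads plus the added 0.5. Zbp1 was similar, with -3.51 and 1.73. A gene without any read would stand at -5.30 on this scale.

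For such sparse genes the average also limits the reads behind it, because the product of (2 × reads + 1) over the 6 libraries can be read back as a whole number. This product was 825 for Ripk3, which splits into at most 4 factors above 1. Reads of Ripk3 were therefore present in at most 4 of the 6 libraries, and at least 2 libraries had none. In all libraries together there were at least 10 reads of Ripk3, and at most 412 if all fell in 1 library. The product for Zbp1 was 1701, which allows reads in up to 6 libraries and a total from 8 to 850. Which libraries held these reads, and so whether they were OZO or OLO libraries, cannot be told from the average.

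Ripk1 lies on chromosome 13 from 34002363 to 34037147 on the plus strand, Mlkl on chromosome 8 from 111311797 to 111338177 on the minus strand, and Ripk3 on chromosome 14 from 55784995 to 55788865 on the minus strand (GRCm38, the mm10 build). Zbp1 lies on chromosome 2 from 173206612 to 173218923 on the minus strand. The start of Ripk1 overlaps Serpinb6a on the opposite strand, and 241 of the 8344 exon bases of Ripk1 are shared with it, while a pseudogene on the same strand, Gm17084, shares 511. Serpinb6a had an average log2 CPM of 7.18. The library kit keeps the strand, but whether reads were counted by strand is not given in the sources used here, and without that reads of Ripk1 and Serpinb6a over the shared bases cannot be told apart. Reads over the bases shared with Gm17084 cannot be assigned by strand. No annotated gene overlaps Ripk3 or Zbp1, and the pseudogene within Mlkl shares 0 of its exon bases.

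The promoters of the 3 genes that carry the signal from kinase to effector are shown because their transcripts differed so widely in level. Each run is the 250 bases before a RefSeq transcription start (GRCm38.p6), 5′ to 3′ on the strand of the gene, and the capitals mark CG dinucleotides, the sites of DNA methylation. The windows are chr13:34002113-34002362 for Ripk1 (plus strand, the first of its 2 listed starts), chr14:55788858-55789107 for Ripk3 (minus strand) and chr8:111338206-111338455 for Mlkl (minus strand).
Ripk1: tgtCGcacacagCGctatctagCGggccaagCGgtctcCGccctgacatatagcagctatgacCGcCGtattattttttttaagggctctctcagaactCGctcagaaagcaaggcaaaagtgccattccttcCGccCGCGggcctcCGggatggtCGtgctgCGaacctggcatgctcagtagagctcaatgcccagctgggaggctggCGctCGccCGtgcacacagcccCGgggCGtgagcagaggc
Ripk3: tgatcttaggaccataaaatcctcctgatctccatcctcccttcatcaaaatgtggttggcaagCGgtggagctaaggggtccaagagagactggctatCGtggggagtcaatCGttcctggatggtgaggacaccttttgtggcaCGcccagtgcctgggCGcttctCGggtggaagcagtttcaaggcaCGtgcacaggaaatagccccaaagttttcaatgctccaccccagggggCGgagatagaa
Mlkl: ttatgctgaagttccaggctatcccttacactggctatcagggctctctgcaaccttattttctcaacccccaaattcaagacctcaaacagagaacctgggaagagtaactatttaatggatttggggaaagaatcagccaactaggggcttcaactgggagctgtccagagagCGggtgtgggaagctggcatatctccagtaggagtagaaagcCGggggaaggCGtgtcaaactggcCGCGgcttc
The Ripk1 window holds 19 CG, that of Ripk3 holds 8 and that of Mlkl holds 5. Of 32851 promoter windows of this length in the RefSeq table, 19.7% hold as many CG as Ripk1 or more, 43.0% as many as Ripk3 and 55.6% as many as Mlkl, and the median window holds 6. Mlkl was thus expressed with fewer CG in its window than Ripk3. Methylation was not measured in these samples.

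Windows were found for 7 of the 9 genes, without Zbp1 and Gsdmd. Among the expressed genes, Ninj1 had 31 CG, the second window of Ripk1 had 32 and Gsdme had 15, and Mlkl, with its 5, was the lowest. Among those under the limit, Ripk3 had its 8, whereas Casp4 had 3 in each of its 2 windows and Casp1 had 1. These 9 windows were searched on both strands for an element of interferon signalling, which controls several of these genes in immune cells. The gamma-activated site, TTCNNNGAA, was in 1 of the 9, the second window of Ripk1, and in 7.02% of all windows. This is a match of letters and not a known binding site.

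Of the gasdermins, Gsdme was the member expressed, and Gsdmd lay just under the limit. Gsdme, on chromosome 6 from 50188888 to 50263862 on the minus strand, had an average log2 CPM of 3.26, or 9.58 CPM, with a geometric mean of 188 reads per library. Its span runs into Mpp6 on the opposite strand, a gene with an average log2 CPM of 7.42, but the exons of the 2 genes share 0 bases. Gsdmd, on chromosome 15 from 75862327 to 75867408 on the plus strand, averaged 0.513 CPM with a geometric mean of 10.1 reads. At least 58 reads of Gsdmd were counted in all. Per kb of the longest coding transcript, Gsdme had 2.19 CPM and Gsdmd 0.286 CPM, a 7.63-fold ratio. This ratio depends on the length chosen. The longest coding transcript of Gsdme has 4383 bases, while its annotated exons together cover 12742. With a longer length for Gsdme the ratio would be smaller.

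Of 8 further genes of the gasdermin family, Gsdmc was expressed, with an average log2 CPM of 6.46 and 36.7 CPM per kb. Per length this was above Gsdme and also above Mlkl. Its neighbours of similar sequence were low or silent, with average log2 CPM of -1.80 for Gsdmc4 and -3.73 for Gsdmc3 and no read for Gsdmc2, and reads of such close copies can be split between them in counting. Gsdma (-2.87), Gsdma3 (-5.03) and Pjvk (-2.19) were under the limit, and Gsdma2 had no read. In all, 2 of 10 gasdermins were expressed, 6 had reads under the limit and 2 had no read, with a median log2 CPM of -2.53 against -1.49 over all genes of the table.

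Casp1 and Casp4, the proteases that cut GSDMD, were both under the limit and stood at nearly the same level. Casp1 had an average log2 CPM of -2.29 with a geometric mean of 4.01 reads per library, and Casp4 had -2.27 with 4.06 reads. The totals were at least 23 reads for Casp1 and at least 25 for Casp4. The upper bounds, if all fell in 1 library, were 133087 and 143437. How these reads were spread over OZO and OLO libraries cannot be told from the average. They are neighbours on the plus strand of chromosome 9, Casp1 from 5298517 to 5307265 and Casp4 from 5308828 to 5336783. Casp12, the third gene of this group, had -4.77, with reads in at most 2 libraries. None of the 3 inflammatory caspases reached the limit on this average over both groups.

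Ninj1, on chromosome 13 from 49187485 to 49196244 on the plus strand, was expressed with an average log2 CPM of 4.79, or 27.6 CPM, and a geometric mean of 542 reads. No annotated gene overlaps it. Its relative Ninj2, which encodes an adhesion protein of the same family, had -4.77, with reads in at most 2 of the 6 libraries.

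Longer transcripts give more reads, so the 9 genes were ordered by CPM per kb of their longest coding transcript. Mlkl stood first with 31.5 CPM per kb, followed by Ninj1 with 20.9 and Ripk1 with 16.4, although Ripk1 had the most reads, since its transcript of 6472 bases is the longest of the 9. Gsdme followed with 2.19, Gsdmd with 0.286, Casp4 with 0.144, Casp1 with 0.136, Zbp1 with 0.0442 and Ripk3 with 0.0397. The 2 widest steps in this order ran from Ripk1 to Gsdme (7.48-fold) and from Gsdme to Gsdmd (7.63-fold). Casp4 and Casp1 differed by 0.08 on the log2 scale, less than the 0.41 of counting error that equal reads in the 6 libraries would carry. For Zbp1 and Ripk3 the difference was 0.16 and the counting error 0.65. These 2 pairs could therefore not be ordered at this depth. The spread between libraries is not in the averages, so the other steps were compared with counting error alone, and each was larger than it. Counting error here is 1 standard error and does not cover the choice of length. By CPM without length, Ripk1 (106) stood above Mlkl (63.2) and Ninj1 (27.6).

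Set among all genes with an annotated length, Mlkl stood above 90.6% of them per kb, Ninj1 above 86.0% and Ripk1 above 82.9%. Gsdme stood above 62.5%. The 5 genes under the limit were above 51.7% (Gsdmd) down to 37.9% (Ripk3), with genes without reads counted among those below. Among genes with a length and at least 1 read, Ripk3 was above 18.4% and Zbp1 above 19.7%.

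**Figure D2:**
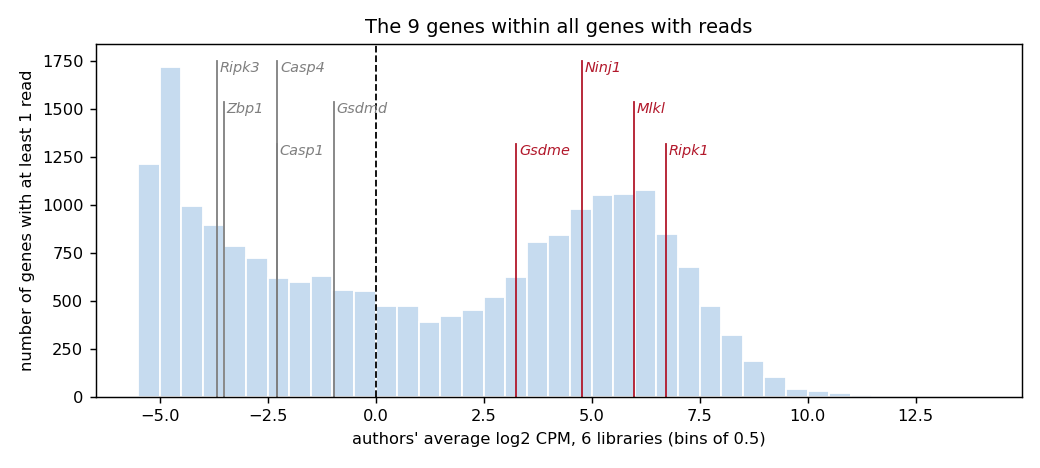
Number of genes with at least 1 read (vertical axis) in bins of 0.5 of the authors' average log2 CPM over the 6 libraries (horizontal axis), with the 9 genes as lines, red where expressed and grey where not. The dashed line is the limit of 1 CPM. Gsdme, Ninj1, Mlkl and Ripk1 lie in the upper hump of the distribution, at 3.26 to 6.73, and the grey genes lie at -0.96 or lower.

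The partners of the 9 genes were grouped by role. Of 25 genes of the TNF receptor complex and the brakes on necroptosis, 23 were expressed, with a median log2 CPM of 5.66 against -1.49 over all genes. The 3 with the highest averages were Tab2 (7.72), an adaptor of the kinase TAK1, Cflar (7.68), which encodes the caspase 8 inhibitor cFLIP, and Mapkapk2 (7.31), the kinase MK2 that phosphorylates RIPK1. Casp8, the protease that cuts RIPK1 and RIPK3, had 6.13. Tnfaip3, which encodes the ubiquitin editor A20, was under the limit with -0.68, as was Birc3 with -4.77, while its relative Birc2 had 5.28. In the list of upstream ligands and receptors, 7 of 10 were expressed. Ifnar1 (6.52), Ifngr2 (5.35) and Tlr4 (4.88) had the highest averages, and Tnf (-3.02), Fas (-3.44) and Tnfrsf10b (-0.25) were under the limit.

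On the pyroptosis side, 3 of the 12 inflammasome sensors and adaptors were expressed (25%, against 43.7% of all genes). These were Nek7 (7.56), a kinase that binds NLRP3, Pycard (3.63), the adaptor ASC, and Naip2 (3.24), a sensor of a bacterial secretion system whose reads could be shared with the other Naip genes. Nlrp3 itself had -2.47 and Aim2 -4.50, and Mefv had no read. The list had a median of -3.04. Of 7 enzymes that cut gasdermins without an inflammasome, Casp8 (70.0 CPM) and Casp6 (11.9 CPM) were expressed, and the granule proteases Gzma, Gzmb and Ctsg had no read. Il18 (4.01 CPM) was the 1 cytokine of 3 that was expressed, with Il1a at 0.194 CPM and Il1b at 0.178 CPM.

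**Figure D3:**
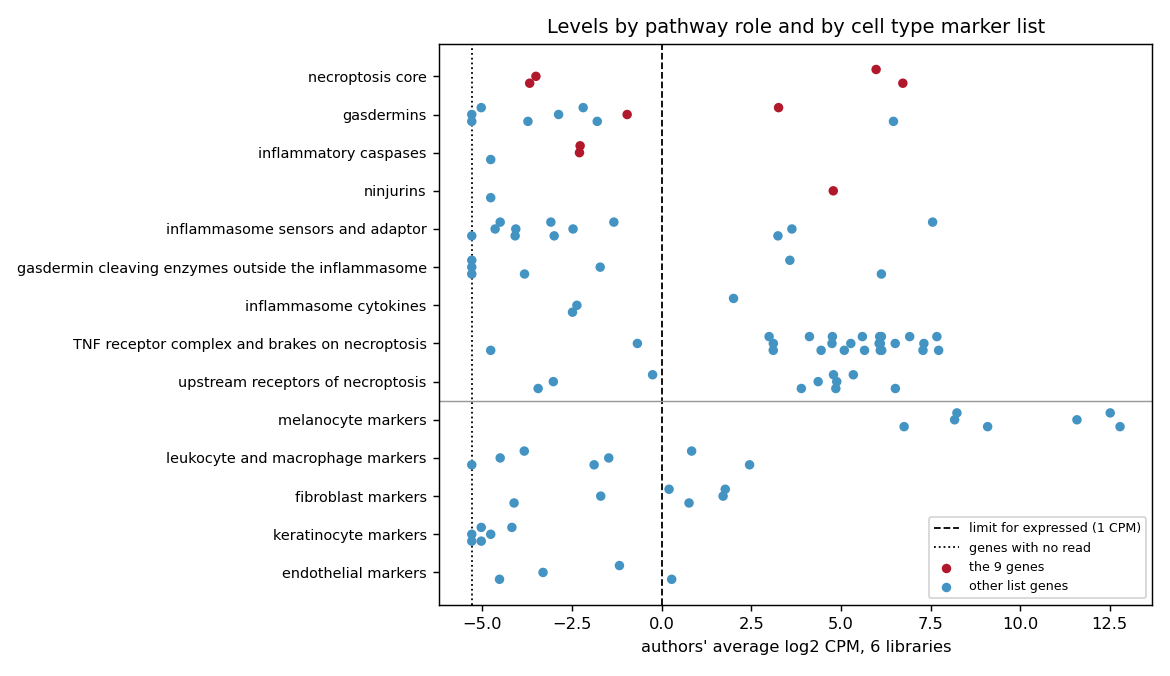
Authors' average log2 CPM over the 6 libraries (horizontal axis) of each gene, 1 point a gene, in the pathway lists (above the grey line) and the cell type marker lists (below it), with the 9 genes in red. Points are offset within a row for sight only. All but 2 of the 25 genes of the TNF receptor complex list lie right of the limit of 1 CPM (dashed), while the inflammatory caspases lie left of it.

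The label of melanoma cells was checked against markers. All 7 melanocyte markers were expressed, from Sox10 (6.76) to Dct (12.8), and their summed level was 17193 CPM. Several of the 9 genes, among them Zbp1, Casp1 and Casp4, are best known from immune cells, and 2 of 7 leukocyte and macrophage markers were expressed, with a summed level of 8.03 CPM: Cd68 had 2.45 and Lyz2 0.84, but Ptprc, which encodes the leukocyte marker CD45, had -3.83 and Tyrobp had no read. Of the fibroblast markers 4 of 6 were over the limit, from Lum (-4.12) to Pdgfrb (1.77). Of the endothelial markers 1 of 4 was, from Kdr (-4.52) to Pecam1 (0.28), and of the keratinocyte markers 0 of 6, from Krt5 without reads to Trp63 (-4.18). Whether the reads of Zbp1, Casp1, Casp4 and Ripk3 came from other cells was not tested.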

How the data were processed

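RNA of 6 B16F10 libraries, 3 treated with OLO and 3 with OZO for 6 h, was sequenced. Per the methods and the labels, the authors aligned reads to mm10 with HISAT2 (2.1.0), counted them per gene with featureCounts (2.1.1) and compared the groups with limma-voom (3.58.1). The value used is the average log2 CPM over the 6 libraries that the authors deposited for each gene, with 0.5 reads added to each count. The deposited table also holds fold changes, moderated statistics, p-values and log odds of the authors' comparison of OZO with OLO, which were not used, and no test was run. Data of the separate libraries were not used here.

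Genes sharing the lowest average were taken as without reads. Through the 0.5 added reads, this value gave the library size (19641946 reads, a geometric mean after scaling) and the reads behind each average. Products of (2 × reads + 1) up to 1e10 were read back when within 0.01 of a whole number. Counting errors assume equal reads in all libraries and cover counting only. The calculation was tested on simulated data. Positions and transcript lengths were from GENCODE M21, which had 23906 of the 24126 Ensembl identifiers, and promoters were from RefSeq.

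Named were the 9 genes, every gasdermin, inflammatory caspase and ninjurin, the 3 highest expressed genes and those without reads in each other pathway list, and the highest and lowest marker of each list. Other genes were named after their values were seen. A gene of the lists is not reported here. The members and lists were chosen with earlier results of these data known. Alternatives were limits of -1, 1 and any read, removal of the 0.5 reads, transcript lengths and other reference sets. Python 3.11.15, numpy 2.4.6, pandas 2.3.3 and matplotlib 3.10.9 were used.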

Additional observations from a re-analysis of the deposited data

How the results depend on the processing

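No paired analysis was possible because each gene has 1 average over all 6 libraries. For the same reason the planned test of OZO against OLO, the replicate block, DESeq2, the filter, the pseudocount and leaving out each replicate were not run.

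The number of expressed members was 4 with a limit of 1, 5 with a limit of -1 (Gsdmd added) and 9 when any read sufficed, in place of 4. All 18 counts of pathway genes with these 2 limits stayed within 1.5 times. Taking 0.5 off the geometric mean lowered Ripk3 to -4.25 and Zbp1 to -4.00 on the log2 scale. This does not give the geometric mean of the reads alone. With the longest annotated transcript in place of the longest coding one, the orders of Casp1 with Casp4 and of Ripk3 with Zbp1 turned. The coding length and places by CPM without length were added with the values in view. Without length Ripk1 stood above 91.5% of all genes and Mlkl above 85.9%. Places among all genes moved by less than 5 percentage points in 8 of 18 values tried. The limit to genes with a symbol gave the same places as that to genes with reads and is counted once.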
